A study of Ambystoma mexicanum with 7 samples.

Results

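The probes described here read the passenger (star) strands of human microRNAs (miRNAs) on an Exiqon array hybridised with axolotl RNA. A probe was a member if its name listed at least 1 human entry ending in an asterisk, with the probes for miR-31*, miR-126* and miR-222* left out by name. The rule used no measured value and chose 90 of the 2021 named probes. The samples came from the hindlimbs of 3 white axolotls, none of which carried a stated transgene or drug treatment. The blastema group was the medium-bud regenerate taken from each animal at 17 days post-amputation (dpa), and the stump group was the mature tissue removed from the same animal at amputation (day 0), with skin, bone, muscle and nerve fibres in it. Each group had 3 arrays, 1 per animal, so p-values measure the spread between 3 animals. Aliquots of the same RNA were also hybridised to LC Sciences arrays, used below as another reading of the same strands. There the 3 blastema and 3 stump samples shared 3 arrays. In such bulk tissue, fewer cells of a type and less RNA per cell cannot be told apart.

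An miRNA is cut from a hairpin as a short duplex. The guide strand is usually loaded into an Argonaute protein and pairs with messenger RNAs through its seed, the bases near its 5′ end, whereas the passenger strand, marked by an asterisk in the older nomenclature, is usually degraded. Both strands come from 1 transcript, so a change in transcription moves them together, while strand choice, stability or a second locus for the guide can move them apart.

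The sequences below are those of many of the star strands that the results turn on, with the guide for some of the pairs discussed. They let the reader see that the strands of a pair are different molecules with different seeds. Those of the miR-30b and let-7f pairs and of the miR-29c guide, also discussed below, are not among them. They are the human target sequences deposited for the LC Sciences reporters of the same name, from a later miRBase release than the Exiqon probes, and they are not axolotl sequences. Each is written 5′ to 3′ with the seed (bases 2 to 8) in capitals.
miR-185*: aGGGGCUGgcuuuccucugguc
miR-185: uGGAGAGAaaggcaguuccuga
miR-32*: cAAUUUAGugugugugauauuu
miR-500*: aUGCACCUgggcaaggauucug
miR-500: uAAUCCUUgcuaccugggugaga
miR-518c*: uCUCUGGAgggaagcacuuucug
miR-518f*: cUCUAGAGggaagcacuuucuc
miR-518e*: cUCUAGAGggaagcgcuuucug
miR-200b*: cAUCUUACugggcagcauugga
miR-200b: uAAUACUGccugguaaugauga
let-7g*: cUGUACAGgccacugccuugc
let-7g: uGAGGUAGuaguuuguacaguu
miR-29c*: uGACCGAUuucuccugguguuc
miR-30e*: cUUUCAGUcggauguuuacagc
miR-30e: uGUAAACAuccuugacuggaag
miR-96*: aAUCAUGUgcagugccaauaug
miR-96: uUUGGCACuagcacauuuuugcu
miR-99a*: cAAGCUCGcuucuaugggucug
miR-99a: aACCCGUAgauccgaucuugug
miR-145*: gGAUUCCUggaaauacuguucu
miR-145: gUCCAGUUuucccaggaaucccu

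Of the 90 members, 89 had such a sequence, and among the 78 pairs with a sequence for both strands none shared a seed. The 89 members with a sequence carried 80 different seeds. miR-30a*, miR-30d* and miR-30e* had the seed UUUCAGU in common, and the probe miR-526a/miR-518f*, the probe miR-518f* and the probe that lists miR-518e* had UCUAGAG. Both probes that list miR-518f* were given its sequence, so the seed they share was fixed in advance. Seeds were also shared by miR-99a* with miR-99b*, by miR-200a* with miR-200b*, by miR-19a* with miR-19b-1*, by miR-200c* with miR-550* and by miR-373* with miR-616*.

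Signal in the scanner files is the brightness of the sample dye (Hy3), and the log2 ratio sets it against a common reference pool (Hy5) on the same array. Both arrays of animal 1 stood apart in quality: 1584 spots of its blastema array and 1209 of its stump array were flagged poor, against 186 to 214 on the other 4 arrays. Dropping poor spots removed 65 of the 360 member spots on that blastema array and 28 on that stump array, but no member lost all its spots on any array. As a check of the tissues, all probes listing the muscle miRNAs miR-1, miR-206, miR-133a, miR-133b or miR-499 were lower in blastema, with log2 differences between -2.83 and -2.39. Of the epidermal markers, miR-203 was lower in blastema by 0.48 on the log2 scale (adjusted p = 0.0195) and miR-205 was not called, and neither were the red blood cell markers miR-451 and miR-144. The part of this difference in tissue make-up in the results below was not tested.

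The question of detection came first, since many passenger strands are rare. A probe was taken as above background on an array if its mean Hy3 signal exceeded the highest of the 7 negative control probes of that array, which lay between 116 and 128. This held for 47, 51 and 42 of the 90 star probes on the blastema arrays of animals 1, 2 and 3, and for 46, 43 and 45 on the stump arrays. The mean count was 46.7 ± 4.5 in blastema and 44.7 ± 1.5 in stump (SD, n = 3 each), and no difference between the groups was detected (two-sided exact permutation test, p = 0.6, where 0.1 is the smallest p that 3 against 3 allows).

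Most probes fell on the same side of the controls on every array. Of the 90 members, 39 exceeded the negative controls on all 6 arrays, 35 on none and 16 on some. On all arrays of at least 1 group, 41 star probes (45.6%) passed, close to the 48.1% of all named probes. Of the 78 guide probes of the same miRNAs, 61 (78.2%) passed. The median Hy3 signal of the members on any array lay between 117 and 127, that is, at the level of the highest negative control.

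**Figure D1:**
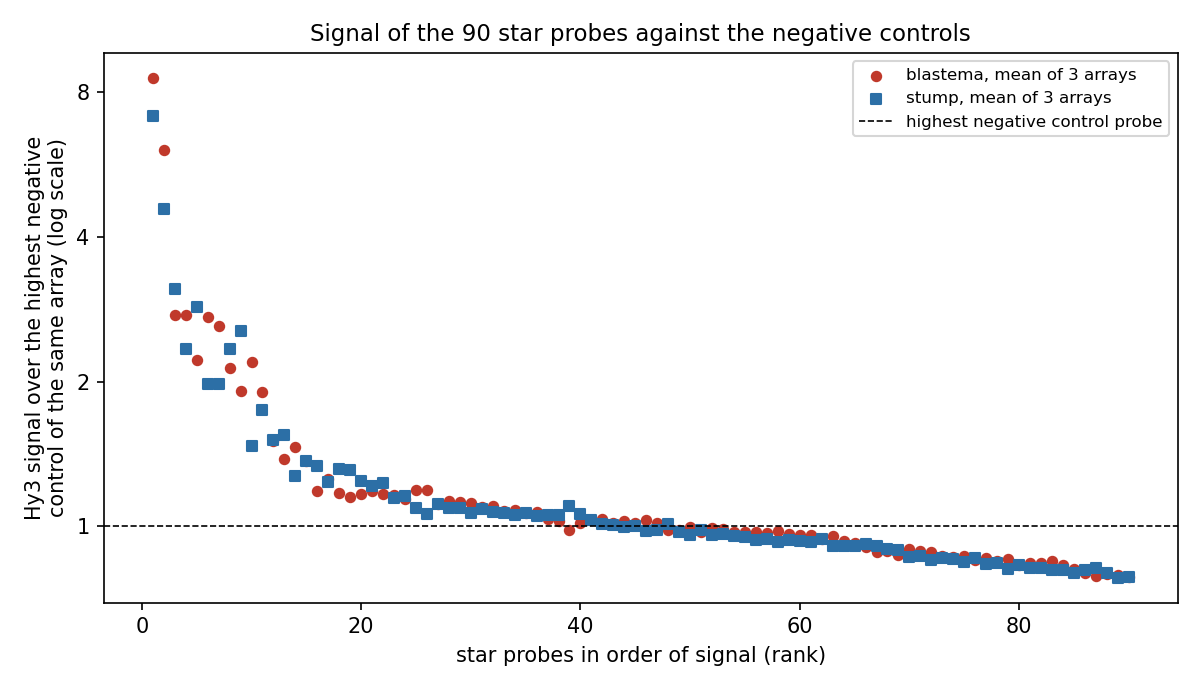
Hy3 signal of each of the 90 star probes divided by the highest negative control probe of the same array (log axis), as the mean of 3 blastema arrays (circles) and of 3 stump arrays (squares), with the probes in order of signal. A few probes stand clear of the dashed line at 1, and most of the others lie within a narrow band around it.

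The star probes furthest above the controls were those of miR-30b* and miR-518c*. miR-30b*, of the miR-30 family known in cell differentiation, had Hy3 signals of 708, 1000 and 1419 on the blastema arrays and 1123, 797 and 759 on the stump arrays. miR-518c*, from the primate-specific miRNA cluster expressed in placenta, had 562, 664 and 982 on the blastema arrays and 784, 474 and 458 on the stump arrays. In both, the raw signals of the groups overlapped. The others of the brightest 10 were miR-99b*, miR-518f*, miR-24-1*/miR-24-2*, miR-32*, miR-500*, miR-519e*, miR-96* and miR-526a/miR-518f*, with mean signals over the 6 arrays between 225 and 361. Brightness depends on the affinity of each probe, so it gives no order of abundance among the miRNAs. The cluster of miR-518c*, miR-518f*, miR-519e* and miR-526a/miR-518f* is primate-specific, so their signal does not show the named strand in axolotl RNA. Which RNA these probes read was not tested.

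Detected members were found whichever species the probe names. Of the 6 star probes that also name a frog (miR-9*, miR-17*, miR-18a*, miR-22*, miR-182* and miR-363*), 3 exceeded the controls on all arrays of a group. So did 2 of the 4 that name a fish or chicken but no frog, 17 of the 35 that name only mammals besides human, and 19 of the 45 that name human alone.

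Blastema and stump were then compared by the log2 ratio of every probe, with limma over 2015 named probes and Benjamini-Hochberg adjustment at 0.05. Most star strands did not differ detectably: 8 of 90 were higher in blastema (8.89%, against 9.13% of all probes tested), 4 were lower (4.44%, against 10.9%), and 78 were not called. At an unadjusted p under 0.05 there were 14 higher and 7 lower. The differences ran between -0.50 and 0.96 with a median of 0.05, against a median of 0.00 over all probes. The groups did not overlap, with every blastema array higher, for 15 members (16.7%, against 16.4% of all probes), and with every blastema array lower for 8 members (8.89%, against 18.9%). The share of higher calls was thus at the background, and the share of lower calls was below it. Of the 12 called members, 11 exceeded the negative controls on all 6 arrays. By the species on the probe, 7 of the 45 that name human alone were higher and 1 was lower. Of the 35 that name only mammals besides human, 1 was higher and 3 were lower. None of the 6 that name a frog, or of the 4 that name a fish or chicken but no frog, was called. Without animal 1, 9 members were called higher and 1 lower, without animal 2 the counts were 5 and 0, and without animal 3 they were 4 and 0. Over all probes tested (2012, 2011 and 2010), the counts in the same order were 174, 108 and 82 higher and 198, 153 and 101 lower.

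The higher calls were led by miR-185*, whose guide acts on cell proliferation genes in mammals. Its log2 ratios were 0.83, 0.73 and 0.66 in blastema, against -0.29, -0.13 and -0.24 in stump. Its raw Hy3 signals, 240, 262 and 294 in blastema and 200, 177 and 174 in stump, did not overlap either. The difference of 0.96 ± 0.11 (SE, 1.94-fold, adjusted p = 0.000294) was larger than the spread between animals.

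miR-518c* had ratios of 0.63, 0.58 and 0.88 in blastema and -0.09, -0.25 and -0.42 in stump, a difference of 0.95 ± 0.13 (adjusted p = 0.000832). miR-32*, the partner of a guide with the seed of the miR-25/92 family, had 0.53, 0.53 and 0.83 in blastema and -0.20, -0.15 and -0.33 in stump, a difference of 0.86 ± 0.12 (adjusted p = 0.000983). In both, every blastema array was above every stump array by ratio, with animal 3 highest in blastema.

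miR-30b* had ratios of 0.19, 0.47 and 0.72 in blastema, a wide spread, against -0.32, -0.31 and -0.48 in stump, a difference of 0.83 ± 0.14 (adjusted p = 0.00275). miR-500*, from an X-linked miRNA cluster, had 0.46, 0.24 and 0.35 in blastema and -0.31, -0.28 and -0.49 in stump, a difference of 0.71 ± 0.12 (adjusted p = 0.00188). The other 3 higher calls were smaller: 0.51 ± 0.11 for miR-518f* (adjusted p = 0.011), 0.47 ± 0.12 for the probe miR-519c-5p/miR-523*/miR-518e*/miR-522*/miR-519a* (adjusted p = 0.0169) and 0.42 ± 0.11 for miR-200b* (adjusted p = 0.0197), whose guide maintains epithelial cells. The call of miR-200b* was lost with the animal as a block (adjusted p = 0.0501), with poor spots kept (adjusted p = 0.151) and without any 1 of the animals, and its difference was 0.11 with median centring and 0.068 with the spike-in loess.

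The 4 lower calls were of let-7g*, miR-96*, miR-30e* and miR-29c*. let-7g*, the partner of a guide that restrains growth and stem cell programmes, had ratios of -0.45, -0.45 and -0.60 in blastema, against 0.12, 0.02 and -0.13 in stump. It exceeded the negative controls on 1 of 3 blastema arrays and on all 3 stump arrays, and its difference was -0.50 ± 0.12 (adjusted p = 0.0124). miR-96*, from a sensory organ miRNA cluster, had -0.36, -0.16 and -0.15 in blastema and 0.29, 0.04 and 0.24 in stump, a difference of -0.42 ± 0.12 (adjusted p = 0.0358).

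miR-30e* had ratios of 0.07, 0.04 and -0.09 in blastema and 0.34, 0.30 and 0.53 in stump, a difference of -0.38 ± 0.11 (adjusted p = 0.0405). miR-29c*, whose guide targets collagen messenger RNAs in mammals, had 0.17, 0.08 and 0.02 in blastema and 0.48, 0.44 and 0.43 in stump, a difference of -0.36 ± 0.10 (adjusted p = 0.035). No group overlapped its counterpart in any of the 4. With the animal as a block, 7 members were called higher and let-7g* alone was called lower, beside 151 and 187 of all 2015 probes tested. Leaving out animal 1 also left let-7g* as the only lower call, and leaving out animal 2 or animal 3 left no lower call by limma (3 and 4 at an unadjusted p under 0.05).

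**Figure D2:**
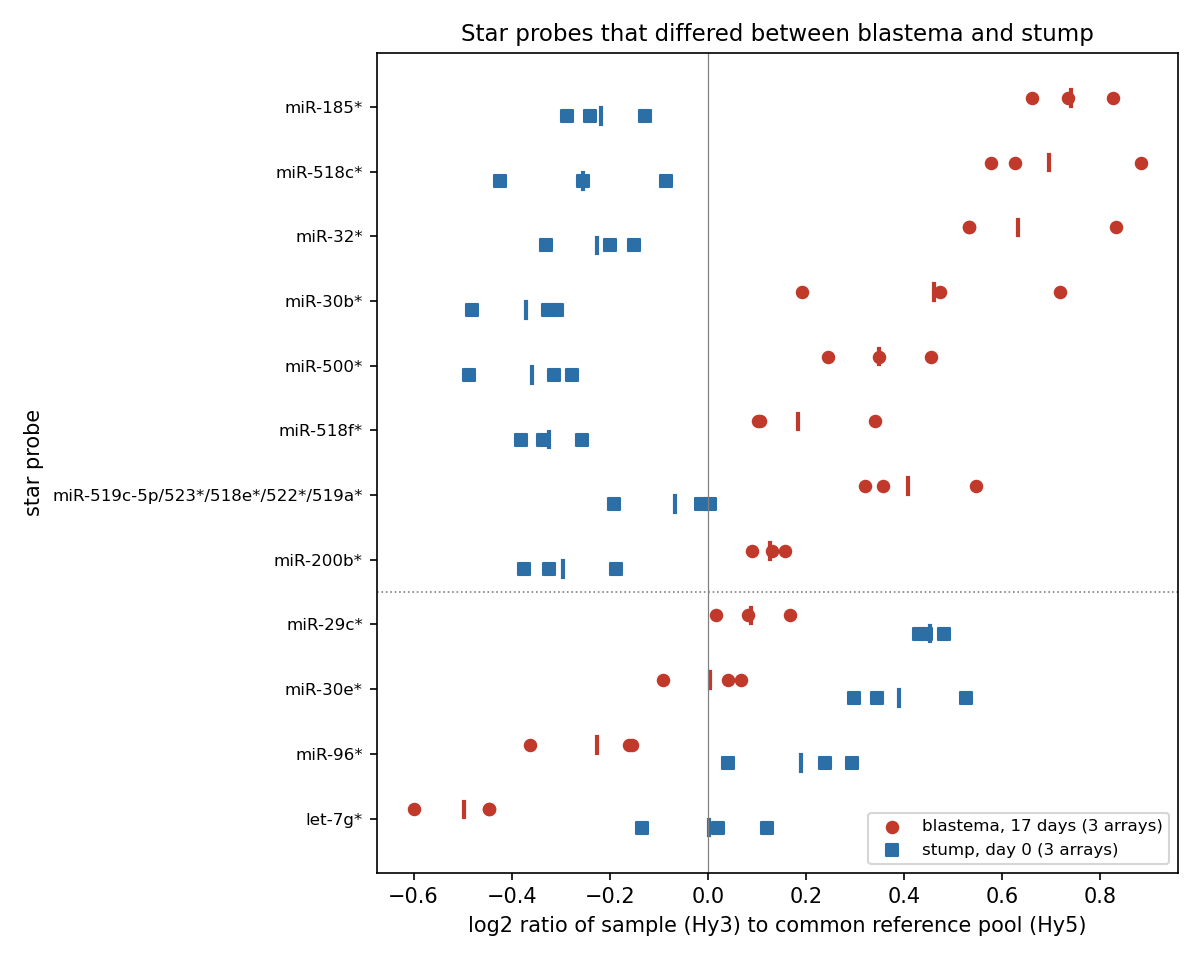
log2 ratio of sample to reference pool for the 12 star probes that differed, 1 point per array, with blastema (circles) above stump (squares) and a bar at each mean; the dotted line separates the 8 higher from the 4 lower. The groups do not overlap for any of the 12.

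The higher calls depended on how the arrays were scaled, and the direction of the lower ones did not. The 10 spike-in control RNAs, added to each sample, were themselves higher in blastema after the loess fit, by a median of 0.71 (from -0.05 to 1.48). After median centring the median was 0.14. After the loess fit the offset tended to be larger in brighter spike-ins. It was -0.05 at a mean Hy3 signal of 117, 0.31 at 196, 0.46 at 238, 0.39 at 248 and 0.57 at 294. Among the brighter ones it was 0.86 at 424, 1.05 at 1281, 1.30 at 1695, 1.03 at 2177 and 1.48 at 3975. Of the higher calls, miR-185* had a signal of 225 and a difference of 0.96, and miR-32* 289 and 0.86. miR-518c* had 654 and 0.95, and miR-30b* 968 and 0.83. The part of the offset in the calls was not tested beyond refitting. With median centring 3 members were called higher (miR-185*, miR-141* and miR-488*) and 5 lower, beside 55 and 264 of all 2015 probes tested. With the loess curve fitted to the spike-in probes 0 were called higher by limma, with 1 at an unadjusted p under 0.05, and 4 were called lower. Of all 2015 probes, 22 were then higher and 247 lower, against 184 and 220 in the main test. The loss of higher calls was thus found over the whole array and not only in the members. With quantile-normalised Hy3 signal alone, the same 8 were called higher as in the main test and 2 were lower (let-7g* and miR-96*), beside 159 and 204 of all 2015 probes. There miR-30e* was at -0.26 (limma, adjusted p = 0.0677) and miR-29c* at -0.17 (adjusted p = 0.139), both not called.

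miR-185* was 0.52 higher with median centring (adjusted p = 0.037) and 0.51 higher, not called, with the spike-in loess (adjusted p = 0.143). The difference of miR-30b* changed sign, to -0.042 with median centring and -0.21 with the spike-in loess, and that of miR-518f* to -0.066 with the spike-in loess. miR-518c*, miR-32* and miR-500* stayed above 0 but were not called, at 0.22, 0.43 and 0.25 with median centring and 0.09, 0.35 and 0.18 with the spike-in loess. let-7g*, miR-30e* and miR-29c* were lower and called under all 3 scalings of the log2 ratio, and miR-96* under the first 2, at -0.94 with the spike-in loess (adjusted p = 0.0525). With Hy3 alone, as given above, miR-30e* and miR-29c* lost their calls and the higher members kept theirs. The probe miR-24-1*/miR-24-2*, not called in the main test at -0.22 ± 0.13, was called lower under both of these alternatives.

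**Figure D3:**
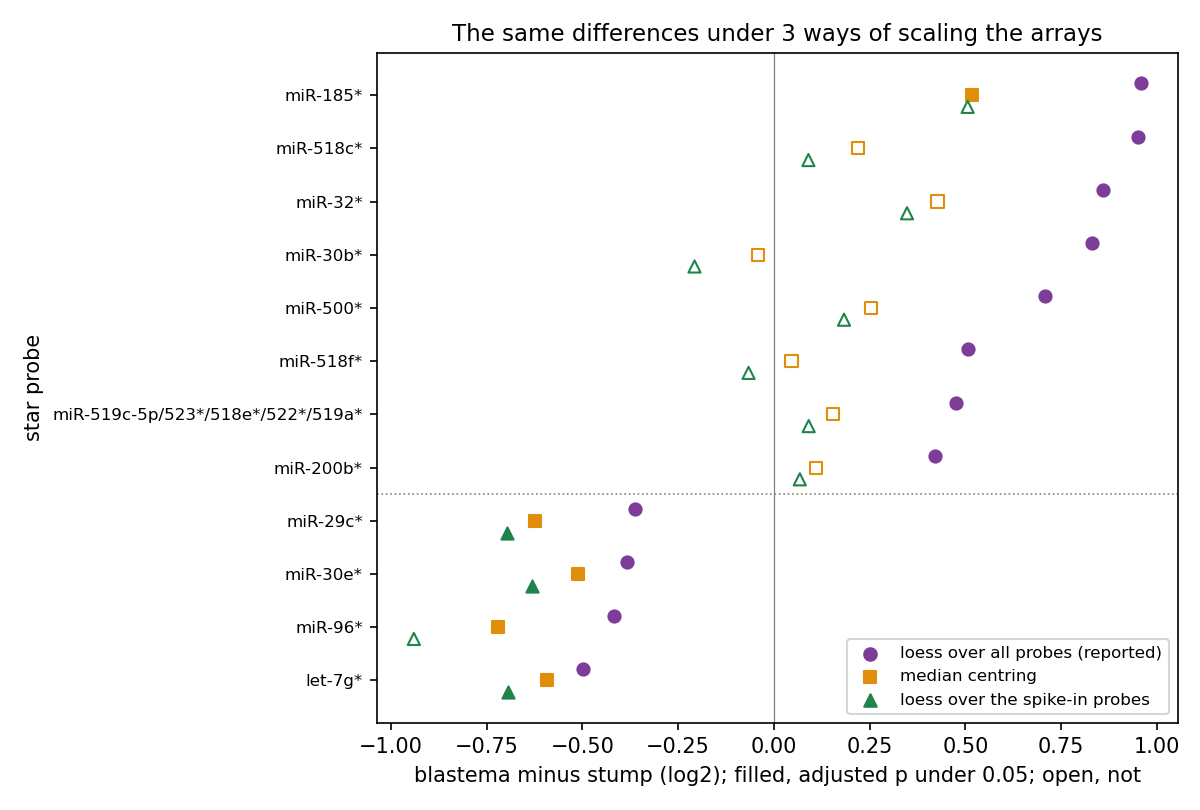
Difference between blastema and stump (log2) of the same 12 star probes after loess over all probes, median centring and loess over the spike-in probes; filled symbols have an adjusted p under 0.05. The higher calls shrink toward 0 under the other scalings and only miR-185* remains called with median centring, whereas the lower calls move further from 0.

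By family, no list of more than 1 star probe was called throughout. Of the 9 probes from the primate-specific cluster and its relatives on chromosome 19, 5 exceeded the controls, 3 were called higher (miR-518c*, miR-518f* and the probe that lists miR-518e*) and none lower, with a median of 0.11, where 9.13% of all probes tested were higher. None of the 3 was called with median centring (0.22, 0.046 and 0.15) or with the spike-in loess (0.09, -0.066 and 0.09). The run GAGGGAAGC was taken as the longest stretch that the 3 called probes had in common, so their sharing it is not a result. It is in 5 of the 856 human reporter sequences (0.584%, searched on the given strand only). A link between the run and the calls was not tested. The only other member probe with that run, miR-526a/miR-518f*, was given the sequence of miR-518f* and was not called, at 0.28 ± 0.13. miR-519e*, from the same cluster and without that run, was at -0.00 ± 0.13. The 2 probes listing miR-518f* thus fell on both sides of the threshold, and probes of near-identical sequence may read one RNA.

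Of the 6 let-7 star probes, which cover let-7a*, let-7d*, let-7e*, let-7f-2*, let-7g* and let-7i*, only let-7g* was called, and the median was -0.16. Of the 4 miR-30 star probes, miR-30b* was higher, miR-30e* lower, and miR-30a* and miR-30d* exceeded the controls on no array. Thus 3 star strands with 1 seed gave 1 call. Of the 7 epithelial star probes, miR-200b* was higher and miR-96* lower, while miR-141*, miR-182*, miR-183*, miR-200a* and miR-200c* were not called. miR-200a*, with the seed of miR-200b*, was at 0.03 ± 0.11.

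Of the 7 connective tissue and smooth muscle star probes, miR-29c* was lower, and miR-22*, miR-29a*, miR-29b-1*, miR-143*, miR-145* and miR-214* were not called. None of the 9 probes of miR-17-92, known for promoting proliferation, or of the clusters related to it was called, and 3 of the 9 exceeded the controls on all arrays of a group. There was no call either among the 4 of miR-99/100 and miR-125, the 5 nerve-associated probes, the 5 of the placental mammal DLK1-DIO3 cluster, of which none exceeded the controls, and the 3 of miR-15/16. The base composition (GC content) was only weakly related to signal or difference: over the 89 members, Spearman's rho with the difference was -0.07 and with the signal -0.06, as a description over probes that share the arrays.

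The star strands were next set against the guide strand of the same name. A guide probe was found for 79 members, 71 by the same name and 8 after dropping the locus number of the star strand. The 11 others had none. Beside the 4 lower and 8 higher calls among the 90 stars, 29 of the 78 guide probes were lower in blastema (37.2%, against the 10.9% of all probes tested) and 2 were higher (2.56%, against 9.13%). The guides also passed the negative controls more often (78.2%, against 48.1% of all named probes). When only the 972 probes that passed were tested, 230 of them were lower and 228 higher. The guide calls were then 32 lower and 4 higher, and of the 41 stars tested 5 were lower and 10 higher. Counted over the pairs, the guide calls were 41 lower and 0 higher with median centring and 40 lower and 0 higher with the spike-in loess. They fell to 16 lower and 0 higher without animal 3 (limma, with 0, 0 and 2 higher at an unadjusted p under 0.05 in these settings). Of all probes tested, 264, 247 and 101 were lower and 55, 22 and 82 higher in the same settings. The median difference was 0.04 for the stars and -0.26 for the guides of the same 79 pairs.

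The changes of star and guide were only weakly related. Over the 79 pairs Pearson's r was 0.16 and Spearman's rho 0.06, as a description over pairs measured on the same arrays, and 38 pairs had the same sign. In the 30 pairs with both probes above the negative controls on all arrays of a group, r was 0.34, rho was 0.23 and 17 had the same sign. By calls, 1 pair was higher in both strands, 2 were lower in both and 1 was called in opposite directions. The guide alone was called in 27 pairs (26 lower, 1 higher), the star alone in 7 (5 higher, 2 lower), and neither in 41. Among the 30 pairs with both probes above the controls, 10 had the guide alone lower and 1 the guide alone higher. In 2 of them the star alone was higher, in 2 it alone was lower, and in 11 neither strand was called.

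The difference between the strands was tested as star minus guide on each array, with limma over 224 star and guide pairs of any species on the array. The star was above the guide in 24 of the 79 pairs (30.4%, against 20.5% of all pairs, which include these) and below it in 1 (1.27%, against 5.8%). In the 30 pairs with both probes above the controls, 12 were called, all with the star above the guide. The share among such pairs of any species was not computed. The other 12 calls with the star above came from the 49 pairs with 1 or both probes not above the controls. Whether star probes at the level of the controls could show a fall of their strand was not tested. The star was above the guide in 40 of the 79 pairs with median centring and in 42 with the spike-in loess, with 1 pair below in each. Without animal 1, 2 or 3 it was above in 17, 6 or 13 pairs.

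The pair called in opposite directions was miR-30b. Its guide had ratios of -0.65, -0.51 and -0.49 in blastema and 0.12, 0.07 and 0.34 in stump, a difference of -0.72 ± 0.12 (adjusted p = 0.00193), with the star at 0.83. The gap of 1.56 ± 0.17 between the strands (adjusted p = 0.000907) stayed called under all 10 alternatives, between 1.32 and 1.73. The opposite directions did not stay: as given above, the star was near or below 0 under the 2 other scalings.

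In most of the other called pairs the guide was lower and the star near 0. let-7f, of the let-7 family, had ratios of -0.66, -0.57 and -0.78 in blastema and 0.28, 0.17 and 0.56 in stump, whereas let-7f-2* had 1.78, 1.62 and 1.51 in blastema and 1.54, 1.59 and 1.47 in stump. The groups overlapped for the star and stood far apart for the guide, and the gap was 1.11 ± 0.17 (adjusted p = 0.00273). Since let-7f can come from more than 1 locus and let-7f-2* from only 1 of them, the pair is not strictly 1 duplex.

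miR-99a, often expressed with let-7c, had ratios of -0.63, -0.66 and -0.81 in blastema and 0.09, 0.08 and 0.33 in stump, and miR-99a* 1.19, 1.12 and 0.93 in blastema and 0.97, 1.06 and 1.02 in stump. The gap was 0.93 ± 0.14 (adjusted p = 0.00252), and it stayed called under all 10 alternatives, between 0.62 and 1.18. That of let-7f-2* also stayed called under all 10, between 0.82 and 1.48. A lower guide and a star that was not called were also found for miR-141 (gap 0.99), miR-191 (0.96), miR-10a (0.89) and let-7d (0.78). The same held for miR-214 (0.49) and for miR-519e (0.54), whose probes, of the primate-specific cluster, do not show the named strands in axolotl RNA. The SEs of these gaps ran from 0.13 to 0.23, with adjusted p between 0.00448 and 0.0408 (limma). Apart from miR-519e* (276), these stars had mean Hy3 signals of only 131 to 136, against highest negative controls of 116 to 128. Whether star probes so near the controls could show a fall of their strand was not tested. The mean signal was 185 for let-7f-2* and 153 for miR-99a*.

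miR-30e fell in both strands, but unequally. Its guide had ratios of -0.94, -0.80 and -0.94 in blastema and 0.19, 0.09 and 0.41 in stump, a difference of -1.12 ± 0.12 (adjusted p = 0.000238) against -0.38 for the star, a gap of 0.74 ± 0.13 (adjusted p = 0.00448). In miR-500 and miR-200b the star was higher and the guide was not called, at 0.08 ± 0.12 and -0.17 ± 0.11. The gaps were 0.63 ± 0.14 (adjusted p = 0.0177) and 0.59 ± 0.15 (adjusted p = 0.0206), and that of miR-500 was 0.15 and not called with median centring. The call of miR-200b* itself held in 3 of 10 alternatives.

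In miR-185 and let-7g both strands were called in the same direction after the loess fit. Between them, only let-7g kept this after the other scalings. Both strands of miR-30e also stayed called lower after those scalings, with the guide at -1.92 with median centring and -2.32 with the spike-in loess. The miR-185 guide had ratios of 0.40, 0.42 and 0.60 in blastema and -0.07, -0.05 and -0.42 in stump, a difference of 0.65 ± 0.13 (adjusted p = 0.00658) beside 0.96 for the star. That rise was not found with median centring, at 0.093 (adjusted p = 0.83), or with the spike-in loess, at -0.060 (adjusted p = 0.946). The let-7g guide had -0.39, -0.39 and -0.42 in blastema and 0.17, 0.30 and 0.39 in stump, a difference of -0.68 ± 0.11 (adjusted p = 0.00164) beside -0.50 for the star, and stayed called at -0.80 with median centring and -0.93 with the spike-in loess. The gaps, 0.31 ± 0.16 for miR-185 and 0.18 ± 0.16 for let-7g, were not called (adjusted p = 0.213 and 0.428), but that of miR-185 was 0.57 and called with the spike-in loess (adjusted p = 0.0364). Of the other called stars, miR-96* was lower while its guide was at 0.05 ± 0.15, and miR-29c* was lower while its guide was at -0.82 ± 0.27 (adjusted p = 0.0593). The guides of miR-518c*, miR-32* and of the probe that lists miR-523* exceeded the controls on no array, so no change is given for them.

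**Figure D4:**
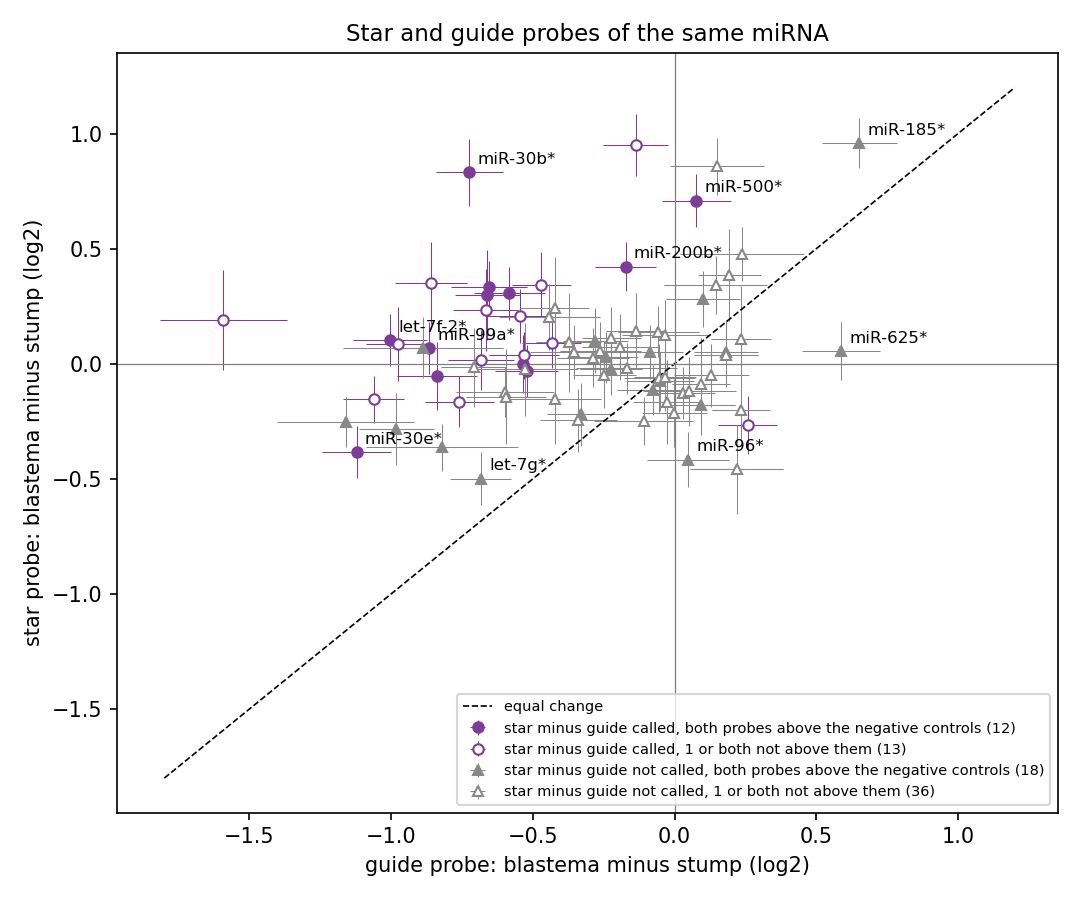
Difference between blastema and stump (log2) of the star probe (vertical axis) against that of its guide probe (horizontal axis) for 79 pairs, with bars of 1 SE; circles are pairs whose star minus guide difference was called, and filled symbols are pairs with both probes above the negative controls. The called pairs lie above the dashed line of equal change, except 1, and mostly left of 0, where the guide was lower in blastema.

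On the LC Sciences array, most star strands lay below the readable range. Signals are the deposited normalized values, and a reporter was tested if it reached 32 in all 3 samples of a group. Of the 89 human star reporters that matched the members, 2 (2.25%) did so, against 25.3% of the 1974 reporters and 39 of the 77 guide reporters (50.6%). A further 8 reached 32 in a single sample, and 79 in none. Of the 41 star reporters whose Exiqon probe exceeded the controls, 3 (7.32%) reached 32 in any sample, and those 3 were 30% of the 10 that did.

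The strands called on the Exiqon array were not readable here. Of the 12 reporters for the called members, the 11 other than miR-200b* had signals between 1 and 25 in all 6 samples. miR-30b*, for example, had 13, 16 and 17 in blastema and 18, 15 and 12 in stump, and miR-518c* had 19, 8 and 10 in blastema and 9, 10 and 4 in stump. Their differences between blastema and stump could therefore not be read on this array.

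miR-145*, the partner of a guide known for smooth muscle differentiation, was the member with the highest LC Sciences signal, 97, 73 and 92 in blastema and 30, 25 and 34 in stump. With 2 of the stump values raised to the floor of 32, it was at least 1.41 ± 0.21 higher in blastema on the log2 scale (limma, adjusted p = 0.00178, where 25.8% of the 500 reporters tested were higher and 22.4% lower), but at -1.499 when the samples were scaled to the spike-in reporters, an alternative chosen after seeing the data. It was 1.56 higher with a floor of 16, and 0.44 higher and not called with a floor of 64 (adjusted p = 0.1). The 4 perfect-match spike-in reporters were 7.5-fold brighter in blastema in the deposited values, and after scaling to them 426 of the 500 reporters were called lower, against 112 before. The guide moved with the star: miR-145 had 1008, 577 and 668 in blastema and 203, 265 and 350 in stump, a difference of 1.46 ± 0.31 (adjusted p = 0.0082).

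The guides were also set against their Exiqon calls. Of the 39 guide reporters tested, 6 were higher and 6 lower, where 25.8% of the 500 reporters tested were higher and 22.4% lower. Of the 29 guides that were lower on the Exiqon array, 21 were tested here, of which 5 were lower, 16 not called and 0 higher (limma, with 1 higher at an unadjusted p under 0.05, miR-93, and 0 by the methods' t-test). The share of lower calls, 5 of 21, was near the 22.4% of all reporters tested. let-7d, let-7f and let-7g were among the lower ones, at -1.73 ± 0.22, -1.12 ± 0.21 and -1.44 ± 0.20. miR-30b, miR-30e, miR-99a, miR-191 and miR-214 were not called, at -0.38 ± 0.26, -0.22 ± 0.31, -0.19 ± 0.26, 0.19 ± 0.26 and 0.23 ± 0.30. The arrays also differed: let-7e, not called on the Exiqon array at 0.26 ± 0.10, was lower here at -3.31 ± 0.36 (limma, adjusted p = 0.000602). The 6 guides higher here, miR-17, miR-20b, miR-22, miR-145, miR-181a and miR-363, were not called on the Exiqon array.

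On the Exiqon array miR-145* exceeded the controls on no blastema array and on 1 stump array, with a difference of 0.06 ± 0.13, and its guide was at -0.26 and not called (adjusted p = 0.272). miR-200b* had LC Sciences signals of 34, 46 and 42 in blastema and 40, 45 and 28 in stump. The groups overlapped and the difference of 0.06 ± 0.24 was not called (adjusted p = 0.828). No member was lower on this array by limma (0 at an unadjusted p under 0.05, and 0 by the methods' t-test), except with the spike-in scaling, when both tested members were lower.

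**Figure D5:**
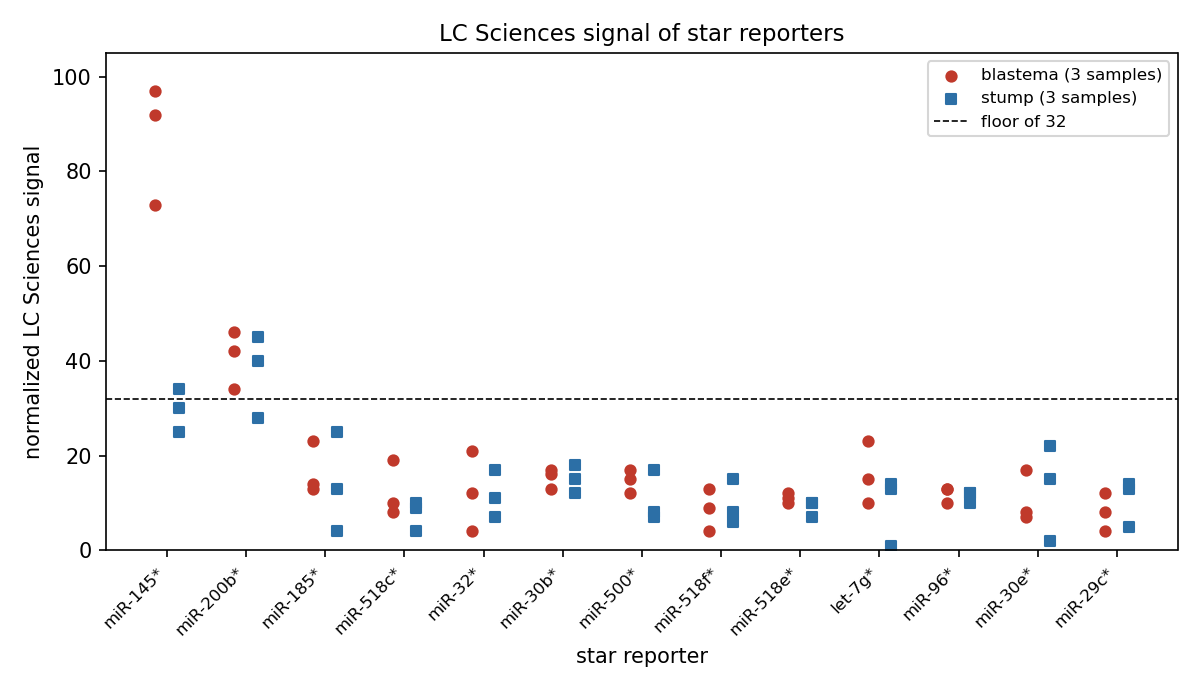
Normalized LC Sciences signal of miR-145*, of miR-200b* and of the reporters for the other star strands called on the Exiqon array, 1 point per sample, with blastema (circles) left of stump (squares) and the floor of 32 dashed. Only miR-145* in blastema stands clear of the floor, and the 11 reporters to the right of miR-200b* stay at or under 25.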

How the data were processed

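The Exiqon files hold background and foreground brightness of both dyes for each spot, deposited as scanner intensity from ImaGene. Each sample carried Hy3 and a common pool Hy5, which fixes the direction of the log2 ratio. Members and lists were chosen with earlier results of these data known. Background was corrected by normexp (offset 10), ratios were loess-normalized within arrays in limma 3.58.1 (R 4.3.3), poor spots were dropped and the 4 spots of a probe averaged. Probes had to exceed local background by 2 SD in at least 0.5 of their spots on all arrays of a group. The authors' deposited log2 median ratios differed from these by a median of 0.0095 (r = 1.00) and served as an alternative. In them, blastema and stump arrays correlated between -0.68 and -0.32 across probes, against 0.38 to 0.65 in the recomputed ratios used here. All 6 deposited values were present for 380 probes, against 2009 tested probes with all 6 recomputed ratios, so these ranges do not cover the same probes. Negative controls (7), spike-ins (10) and 206 unnamed probes were left out of the tests. No spot was saturated. Precision is limited by having 3 arrays per group.

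The LC Sciences values are other normalized signals, deposited by the authors without counts, and were tested as log2 with a floor of 32, leaving out 12 control reporters. Blastema and stump samples shared arrays there, and the main test was unpaired. Columns of the authors' own fold changes and p-values were not used.

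The 3 replicate numbers were taken to pair blastema and stump of the same animal. For the Exiqon arrays this is an assumption, since their sample titles give a replicate number and no animal. Deviations of paired arrays from their group means correlated at -0.03, -0.01 and -0.04 over 2009 probes, and the main test did not use the pairing. Named members were up to 12 called in each direction, the 10 brightest, up to 12 pairs with both probes above the controls by size of the gap, those above the LC Sciences floor, and up to 3 of each list. Alternatives were other scalings, background, spot and probe filters, the animal as a block, each animal left out, the deposited ratios and the methods' t-test. The tests were tried on simulated data first.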

Additional observations from a re-analysis of the deposited data

How the results depend on the processing

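Called members numbered 8 higher and 4 lower. The higher count was 3 with median centring, 0 with the spike-in loess and 1 by the methods' t-test at an unadjusted p of 0.001 or less. Over all 2015 probes the higher calls also fell, from 184 to 55 with median centring and 22 with the spike-in loess. The lower count was 2 with Hy3 alone, 1 with the animal as replicate block, 1 with the deposited ratios (11 members had all 6 values) and 0 by the methods' t-test at that threshold. After adjustment the methods' t-test gave 8 higher and 3 lower. Leaving out 1 animal gave 4 to 9 higher and 0 to 1 lower, beside 82 to 174 higher and 101 to 198 lower over all probes tested. Without animal 2 miR-185*, miR-518c*, miR-32*, miR-30b* and miR-500* were the higher calls, and without animal 3 miR-185*, miR-518c*, miR-32* and miR-500*. miR-30b* changed sign, to -0.042 with median centring and -0.21 with the spike-in loess, and miR-518f* to -0.066 with the spike-in loess; the cause was not tested.

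Star above guide was called in 24 pairs, in 40 with median centring, 42 with the spike-in loess, 12 with fewer probes tested (those above the controls), and 6 to 17 without 1 animal. Star below guide was called in 1 pair (let-7e*, with the star above the controls on no array), in 2 without background correction, and in 0 with poor spots kept, with probes above the controls only, with the block and without any 1 animal. Probes above local background were 90 on each array. With the animal as replicate block, miR-96*, miR-30e*, miR-29c* and miR-200b* lost their Exiqon calls (limma, adjusted p between 0.0501 and 0.0918), and no other call changed among the 12 members or on LC Sciences.

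On LC Sciences 1 member was higher, 2 with a floor of 16 (miR-145* and miR-181a*) and 0 with a floor of 64. With the spike-in scaling, added after seeing the data, 0 were higher and 2 lower, with miR-145* at -1.499 and miR-200b* at -2.84. miR-200b* also ran between -0.10 (without replicate 3) and 0.21 when 1 animal was left out. Signals near the negative controls limit what these probes can show.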
